A study of Mus musculus with 7 samples.

Results

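Glycolysis, the pentose phosphate pathway and the citrate cycle are represented here by 38 genes, chosen by name for their enzyme or transporter function. The 38 comprise 11 genes of glucose uptake and upper glycolysis, 7 of lower glycolysis and lactate, 3 of pyruvate dehydrogenase and its kinase, 11 of the citrate cycle and its cytosolic counterparts, and 6 of the pentose phosphate pathway. A probe set assigned to exactly 1 gene symbol was found for 34 of them, out of 18193 genes in all. Gapdh was represented by probe sets that also carry other symbols, and Gpi1, Eno1 and G6pdx were not analysed here. All 34 reached the intensity filter of 82 in at least 2 arrays and were among the 10874 genes tested. Of these 34, 32 read at or above it on all 7 arrays, and the exceptions were Aldoc and Idh1.

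Transcripts were measured on 7 single-colour Affymetrix arrays of T cells sorted from the thymi of mice aged 4 to 6 weeks on a C57BL/6J background. Stage 1 natural killer T (NKT) cells, sorted as CD1d tetramer-binding, CD24 low cells without CD44 and NK1.1, came from Valpha14 T cell receptor transgenic mice (n = 2). The same sort was made from Luxoid mutant mice, described as PLZF-deficient, that carried the same transgene (n = 3). PLZF is the transcription factor encoded by Zbtb16 that directs the NKT programme. Conventional CD4 single-positive (CD4SP) thymocytes came from wild-type mice without the transgene (n = 2), so cell type and transgene cannot be told apart in comparisons with CD4SP. Each sample pooled mice, and samples of a group are given as biological replicates. The promoter of the transgene is not given in the sources used here.

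Glycolysis splits glucose into pyruvate in the cytosol and yields ATP and lactate quickly, while the citrate cycle oxidises acetyl groups from pyruvate in mitochondria. The pentose phosphate pathway branches off the first glycolytic intermediate and yields NADPH and ribose phosphate for nucleotides. T cells that leave quiescence and divide raise glucose uptake and glycolysis, and resting naive T cells rely more on mitochondrial oxidation.

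Array medians lay between 79.6 and 83.7, and arrays of 1 group correlated at r = 0.984 to 0.992. Zbtb16 read 2751 and 3488 in stage 1 NKT, 1857, 2774 and 2645 in Luxoid NKT, and 87.3 and 61.8 in CD4SP. The array measures the transcript and therefore does not check the loss of PLZF protein. Cd24a read 14.1 to 57.1 in the NKT arrays and 239 to 246 in CD4SP, and Cd4 read 1888 to 2360 against 5824 and 6754. Klrb1c, which encodes NK1.1, has no probe set of its own. For the CD4SP samples 1 label repeats the NKT sort, and the titles, which name CD4SP, were followed. The pools differed in sex within groups, since Y-linked Kdm5d read 6.49 to 11.7 in the arrays numbered 1 and at least 758 in the others. Of 7 myeloid or dendritic markers 6 were under the filter on all arrays, as were 3 of 4 measured erythroid markers. The summed intensity of 5 B cell markers was 818 to 894 in stage 1 NKT, 585 to 724 in Luxoid NKT and 934 to 976 in CD4SP. Ighm was the largest term, and the markers went different ways. Cd79b was higher in all NKT arrays (138 to 211) than in CD4SP (66.2 and 43.0). Cd79a was lower in them (63.2 to 97.5 against 143.3 and 138.5). Pax5 overlapped between groups, and Ms4a1 was under the filter on all arrays.

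The comparison of stage 1 NKT with CD4SP asked how the metabolic transcripts of the innate-like lineage differ from those of conventional thymocytes. In stage 1 NKT 10 of the 34 genes were higher and 0 were lower at an adjusted p under 0.05 in limma, with 14 at an unadjusted p under 0.05 in either direction. Over all 10874 genes tested, 10.8% were higher and 4.08% were lower (14.9% in all). Both stage 1 NKT arrays lay above both CD4SP arrays for 23 of the 34 genes and 36.6% of all genes, and below them for 3 and 23.6%. The median log2 difference was 0.30 for the 34 genes and 0.06 for all genes. In Luxoid NKT 9 of the 34 were higher and 1 was lower than in CD4SP, where the shares over all genes were 11.3% and 5.51% (16.8% in all), and the medians were 0.17 and 0.02. All Luxoid arrays lay above CD4SP for 16 of the 34 genes and 25.4% of all genes, and below for 2 and 20.6%. Both comparisons use the same pair of CD4SP arrays, so their values are given side by side and are not independent. Of the 32 genes at or above the filter on all arrays, 9 were higher in stage 1 NKT and 8 in Luxoid NKT.

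The genes called against CD4SP included enzymes from glucose phosphorylation to triose phosphate. Of 10 measured genes of glucose uptake and upper glycolysis, 5 were higher in stage 1 NKT (median 0.64) and 5 in Luxoid NKT (median 0.51). In either comparison 0 were lower. These counts and medians include Aldoc, which was tested only through its NKT values, so its call supports nothing. Among 5 measured genes of lower glycolysis and lactate, 2 were higher in each comparison, with medians of 0.19 and 0.17. Over all genes 10.8% and 11.3% were higher.

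Glucose enters through facilitative transporters. Slc2a1, which encodes the widespread transporter GLUT1, read 2543 and 2529 in stage 1 NKT, 2528, 2890 and 3213 in Luxoid NKT, and 2009 and 2387 in CD4SP. All NKT arrays were above both CD4SP arrays, but neither difference passed (0.21 ± 0.17, adjusted p = 0.447, and 0.39 ± 0.15, adjusted p = 0.134, log2 difference ± SE). Slc2a3, which encodes the high-affinity neuronal-type transporter GLUT3, ranged more widely within groups, from 984 to 1506 in stage 1 NKT and from 656 to 1338 in Luxoid NKT, against 848 and 949 in CD4SP. Its SE of 0.31 to 0.33 was the largest among the 34 genes in each comparison, and it did not pass in any.

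Hexokinases trap glucose by phosphorylation. Hk2, the inducible hexokinase, read 472 and 357 in stage 1 NKT, 382, 295 and 437 in Luxoid NKT, and 222 and 142 in CD4SP. Every NKT array lay above both CD4SP arrays, by 2.31-fold for stage 1 NKT (1.21 ± 0.27, adjusted p = 0.0184) and 2.06-fold for Luxoid NKT (1.04 ± 0.24, adjusted p = 0.0206). Hk1, the constitutive hexokinase, read 616 to 699, 604 to 934, and 579 and 610 in the same order, and its differences of 0.14 ± 0.21 and 0.37 ± 0.19 did not pass (adjusted p = 0.695 and 0.248).

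Phosphofructokinase, which commits sugar to glycolysis, is built from a liver, a muscle and a platelet type subunit. Pfkl, the liver type, read 943 and 858 in stage 1 NKT, 954, 777 and 990 in Luxoid NKT, and 480 and 366 in CD4SP. Both NKT groups were 2.15-fold higher than CD4SP without overlap (1.10 ± 0.19, adjusted p = 0.00632, and 1.11 ± 0.17, adjusted p = 0.00326). A second bright Pfkl probe set gave 1.05 and 1.21, while the dimmest, at 74.1 to 110 on the 7 arrays, gave 0.14 and -0.21. Pfkp, the platelet type, was by its brightest probe set higher in every NKT array than in CD4SP (1031 to 1592 against 972 and 1022). It did not pass (0.53 ± 0.19, adjusted p = 0.104, and 0.31 ± 0.17, adjusted p = 0.285). A second Pfkp probe set gave 0.54 and 0.49. The third, at 349 to 575, went the other way with -0.13 in both comparisons, and there stage 1 NKT lay below CD4SP without overlap. Pfkm, the muscle type, overlapped between all groups, with differences of 0.06 ± 0.26 and -0.25 ± 0.24.

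Aldolase and triose phosphate isomerase split the hexose and interconvert the products. Aldoa, the main aldolase of most tissues, read 3866 and 4204 in stage 1 NKT, 3332, 3884 and 4087 in Luxoid NKT, and 2319 and 2508 in CD4SP. This was 1.67-fold and 1.56-fold above CD4SP (0.74 ± 0.16, adjusted p = 0.0159, and 0.64 ± 0.14, adjusted p = 0.0181). The suffix of all 5 Aldoa probe sets marks probes that may bind other transcripts as well, and the dimmest gave 0.19 and 0.13 with overlapping groups. Tpi1, the isomerase, read 1775 and 1589 in stage 1 NKT, 1537, 1464 and 2175 in Luxoid NKT, and 668 and 451 in CD4SP. Among the 32 members read at or above the filter in every array it had the largest difference from CD4SP, 3.06-fold in stage 1 NKT (1.61 ± 0.25, adjusted p = 0.00362) and 3.09-fold in Luxoid NKT (1.63 ± 0.23, adjusted p = 0.00164). Its other 2 probe sets gave 1.72 and 1.46 for stage 1 NKT and 1.47 and 1.42 for Luxoid NKT. Aldoc, the brain-type aldolase, read 137 and 143 in stage 1 NKT, 87.1, 87.1 and 96.5 in Luxoid NKT, and 52.0 and 31.4 in CD4SP. Because both CD4SP arrays lay under the filter, Aldoc was tested only through its NKT values, had to differ, and supports nothing by its call. It exceeded CD4SP by at least 1.70-fold in stage 1 NKT and by at least 1.10-fold in Luxoid NKT (adjusted p = 0.00136 and 0.00598). Here at least means the geometric mean of the brighter group divided by the filter value.

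**Figure D1:**
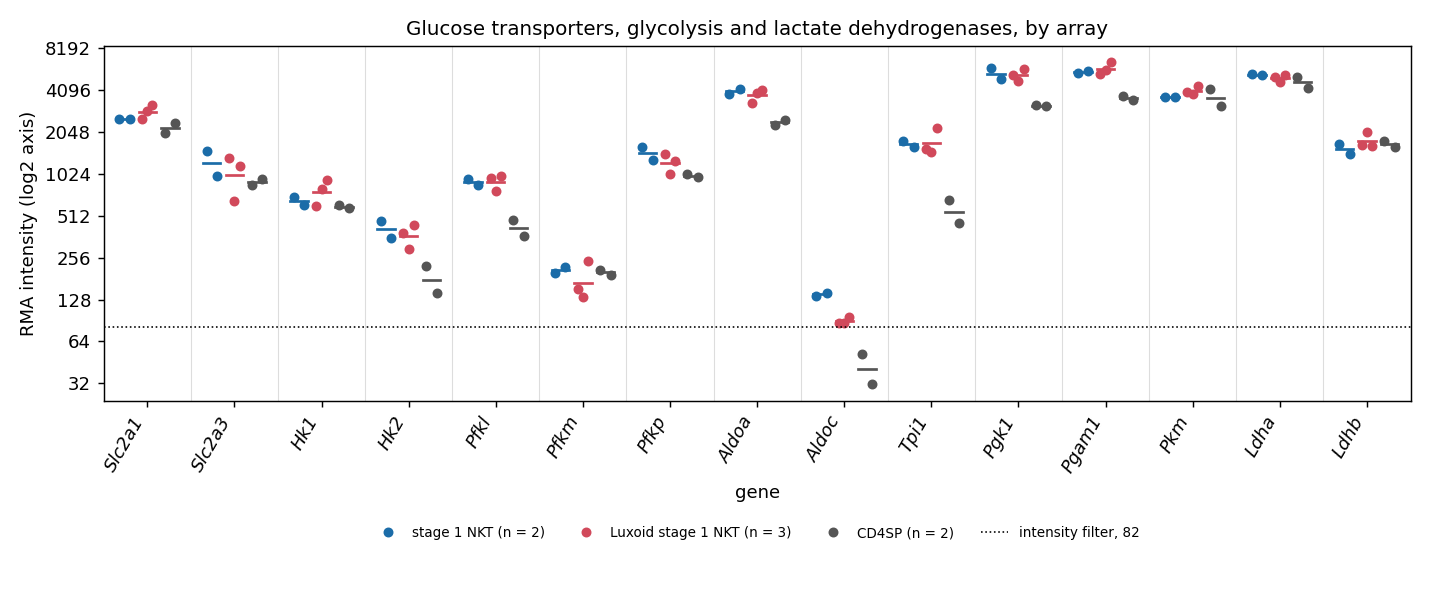
Intensity of 15 glycolytic genes on each of 7 arrays, on a log2 axis, with a horizontal bar at each group's geometric mean and a dotted line at the intensity filter of 82. All 5 NKT arrays lie above both CD4SP arrays for Hk2, Pfkl, Aldoa, Aldoc, Tpi1, Pgk1 and Pgam1, while for Pkm and Ldhb each NKT group overlaps with CD4SP.

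In the lower, ATP-yielding steps Pgk1 and Pgam1 were called and Pkm, Ldha and Ldhb were not. Pgk1, phosphoglycerate kinase, which makes the first ATP of the pathway, read 5885 and 4900 in stage 1 NKT, 5244, 4789 and 5794 in Luxoid NKT, and 3183 and 3164 in CD4SP. It was 1.69-fold and 1.66-fold higher than in CD4SP (0.76 ± 0.16, adjusted p = 0.0162, and 0.73 ± 0.15, adjusted p = 0.0113). Pgam1, phosphoglycerate mutase, read 5426 and 5616, then 5353, 5703 and 6522, and 3730 and 3503 in CD4SP, which is 1.53-fold and 1.61-fold (0.61 ± 0.15, adjusted p = 0.0306, and 0.69 ± 0.14, adjusted p = 0.0110). For both genes the lowest NKT array was above the highest CD4SP array.

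Pkm, pyruvate kinase, read 3662 and 3657 in stage 1 NKT, 3951, 3827 and 4400 in Luxoid NKT, and 4155 and 3142 in CD4SP. The stage 1 NKT arrays lay between the CD4SP arrays, and 1 Luxoid array lay above both. Its difference from CD4SP was 0.02 ± 0.17 for stage 1 NKT, with a 95% interval of -0.38 to 0.41 on the log2 scale. Ldha, the lactate-forming dehydrogenase subunit, read 5308 and 5303, then 5103, 4701 and 5237, and 5117 and 4251 in CD4SP (0.19 ± 0.15, interval -0.16 to 0.54). Ldhb, the subunit that favours lactate oxidation, differed by -0.14 ± 0.18 and 0.06 ± 0.16. None of these 3 genes passed in any comparison (adjusted p = 0.463 to 0.956), and for stage 1 NKT against CD4SP their intervals lay within a 2-fold change.

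The genes of glycolysis that were higher than CD4SP in both NKT groups were also read at the sequence level, because hypoxia-inducible factor 1, a known activator of glycolytic enzymes, binds DNA at the core ACGTG or GCGTG. The 250 bases before the RefSeq start sites were searched on both strands in the GRCm38.p6 build. ACGTG, which reads CACGT on the other strand, stood before 4 of the 7 genes (Hk2, Aldoa, Pgk1 and Pgam1) and before 18.5% of 27025 genes with such a window. The 7 include Aldoc, which was tested only through its NKT values. Among 32 measured members with a window it stood before 11. GCGTG stood before 3 of the 7, 23 of the 32 and 30.9% of all genes. The E box CACGTG, which Myc and its partners bind and which contains ACGTG, stood before 0 of the 7 and 6.86% of all genes. A match describes the letters alone and shows no binding. The 4 sequences with ACGTG are shown 5′ to 3′ on the gene's strand, with capitals marking each match on either strand.
Hk2 (chr6:82774455-82774704, minus strand): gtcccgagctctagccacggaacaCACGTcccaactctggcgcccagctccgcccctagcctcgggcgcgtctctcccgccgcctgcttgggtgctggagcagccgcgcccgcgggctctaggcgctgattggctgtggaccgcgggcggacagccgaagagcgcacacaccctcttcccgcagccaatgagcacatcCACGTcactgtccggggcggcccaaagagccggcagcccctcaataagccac
Aldoa (chr7:126799255-126799504, minus strand): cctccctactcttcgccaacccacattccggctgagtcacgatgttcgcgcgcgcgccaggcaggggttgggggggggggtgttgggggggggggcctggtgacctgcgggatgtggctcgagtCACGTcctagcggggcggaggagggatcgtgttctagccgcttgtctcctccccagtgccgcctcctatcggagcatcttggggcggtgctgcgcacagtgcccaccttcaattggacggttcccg
Pgk1 (chrX:106186850-106187099, plus strand): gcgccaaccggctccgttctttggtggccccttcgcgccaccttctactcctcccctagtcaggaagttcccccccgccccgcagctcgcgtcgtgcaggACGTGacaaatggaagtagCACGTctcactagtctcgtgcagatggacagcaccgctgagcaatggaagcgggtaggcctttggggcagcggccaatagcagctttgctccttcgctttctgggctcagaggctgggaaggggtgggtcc
Pgam1 (chr19:41911621-41911870, plus strand): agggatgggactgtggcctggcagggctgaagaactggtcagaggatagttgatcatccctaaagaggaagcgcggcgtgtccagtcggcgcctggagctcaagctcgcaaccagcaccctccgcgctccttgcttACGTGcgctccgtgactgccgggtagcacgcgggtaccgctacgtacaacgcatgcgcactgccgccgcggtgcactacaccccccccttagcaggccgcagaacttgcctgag
Hk2 and Pgk1 hold 2 matches each, and Aldoa and Pgam1 hold 1 each in the windows shown. A further Aldoa start site has an overlapping window with the same match, and another has a window with none. The transcript of the factor itself, Hif1a, read 1619 and 1170 in stage 1 NKT, 1518, 1071 and 1544 in Luxoid NKT, and 1101 and 1131 in CD4SP, and no difference passed (adjusted p = 0.409 to 0.986). Myc did not pass either (adjusted p = 0.218 to 0.784).

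At the gate between glycolysis and mitochondria, pyruvate dehydrogenase converts pyruvate to acetyl-CoA and its kinase Pdk1 shuts it off. Pdk1 pointed the other way from the glycolytic enzymes, at 512 and 672 in stage 1 NKT, 479, 737 and 739 in Luxoid NKT, and 866 and 1289 in CD4SP. Both CD4SP arrays were above all NKT arrays, and the differences of -0.85 ± 0.28 and -0.73 ± 0.25 did not pass (adjusted p = 0.0773 and 0.0901). Averaged over the 4 Pdk1 probe sets, all of them lower in both NKT groups, they did (-0.998 with adjusted p = 0.00162, and -1.175 with adjusted p = 0.000308). Over the alternatives the adjusted p ran from 0.00162 to 0.374 and from 0.000308 to 0.479. Pdha1 and Pdhb, subunits of the dehydrogenase itself, differed from CD4SP by at most 0.33 in size by their brightest probe sets and did not pass. The second Pdha1 probe set gave 0.46 for stage 1 NKT, without overlap, and 0.15 for Luxoid NKT. The second Pdhb probe set, near the filter at 74.5 to 118, gave -0.01 and -0.34, the latter without overlap.

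Of 11 citrate cycle and related dehydrogenase genes, 2 were higher in stage 1 NKT than in CD4SP and 0 were lower (median 0.25). In Luxoid NKT 2 were higher and 1 was lower (median 0.03). Over all genes 14.9% and 16.8% were called in either direction. Idh3a, the catalytic subunit of the NAD-dependent isocitrate dehydrogenase of the cycle, read 1675 and 1625 in stage 1 NKT, 1629, 1770 and 1587 in Luxoid NKT, and 1027 and 913 in CD4SP. The NKT groups did not overlap with CD4SP and were 1.70-fold and 1.72-fold higher (0.77 ± 0.15, adjusted p = 0.00951, and 0.78 ± 0.13, adjusted p = 0.00490). The other Idh3a probe sets above the filter gave 0.90 and 0.97 for stage 1 NKT, and 0.59 and 0.36 for Luxoid NKT with overlapping groups. Suclg1, a subunit of succinyl-CoA ligase, read 1123 and 1109, then 1071, 930 and 1092, and 754 and 710 in CD4SP (0.61 ± 0.15, adjusted p = 0.0273, and 0.49 ± 0.14, adjusted p = 0.0402).

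Idh2, the mitochondrial NADP-dependent isocitrate dehydrogenase, was the 1 member called lower, in Luxoid NKT. It read 964 and 739 in stage 1 NKT, 795, 628 and 794 in Luxoid NKT, and 1316 and 1305 in CD4SP, so all 5 NKT arrays were below CD4SP. The difference passed for Luxoid NKT (-0.84 ± 0.17, adjusted p = 0.0120) and not for stage 1 NKT (-0.64 ± 0.19, adjusted p = 0.0566), and the Luxoid and stage 1 values did not themselves differ beyond their error (-0.20 ± 0.17, adjusted p = 0.748). The stage 1 value passed under 7 of 17 alternatives (adjusted p = 0.0231 to 0.258 over all). The second Idh2 probe set gave -0.27 and -0.90 against CD4SP, and there the Luxoid arrays (370 to 387) also lay below stage 1 NKT (533 and 634). Idh1, the cytosolic isocitrate dehydrogenase, was near the filter at 78.6 to 181 and did not pass.

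Cs, citrate synthase, which starts the cycle, read 2418 to 2630 in stage 1 NKT and 2187 to 2695 in Luxoid NKT against 2066 and 2117 in CD4SP, and its differences of 0.27 ± 0.16 and 0.19 ± 0.14 did not pass. Mdh2, the mitochondrial malate dehydrogenase, read 5505 to 6120 over all 7 arrays, with differences of -0.02 ± 0.14 and -0.05 ± 0.13. Its second probe set ran from 2115 to 3435 and gave 0.28 for stage 1 NKT, without overlap, and -0.12 for Luxoid NKT. Mdh1, its cytosolic counterpart, Idh3b, Sucla2, Fh1 (fumarate hydratase) and Ogdh (a subunit of oxoglutarate dehydrogenase) did not pass either. Ogdh lay at 340 and 278 in stage 1 NKT, 402, 440 and 344 in Luxoid NKT and 566 and 388 in CD4SP by its brightest probe set, and its other probe set, at 0.19 for stage 1 NKT minus CD4SP, had the opposite sign to the -0.61 of the first.

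In the pentose phosphate pathway 1 of 5 measured genes was higher in stage 1 NKT than in CD4SP (median 0.36) and 0 of 5 in Luxoid NKT (median 0.10). Over all genes 10.8% and 11.3% were higher. The 1 gene was Tkt, transketolase, which links ribose phosphate back to glycolysis. It read 5898 and 6107 in stage 1 NKT, 4394, 4038 and 4374 in Luxoid NKT, and 3513 and 3345 in CD4SP. The 3 groups did not overlap and stood in that order. Stage 1 NKT exceeded CD4SP 1.75-fold (0.81 ± 0.14, adjusted p = 0.00619), and Luxoid NKT stood between, 0.32 ± 0.13 above CD4SP (adjusted p = 0.137).

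Rpia, which makes ribose 5-phosphate, read 853 and 923 in stage 1 NKT, 674, 645 and 542 in Luxoid NKT, and 733 and 652 in CD4SP. Here stage 1 NKT was highest, and the other groups overlapped. Taldo1 (transaldolase) read 544 and 573, then 556, 443 and 350, and 385 and 440 in CD4SP, and did not pass in any comparison. Pgd, the NADPH-forming phosphogluconate dehydrogenase, and Pgls, the lactonase before it, differed by 0.39 or less in size in every comparison and did not pass.

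**Figure D2:**
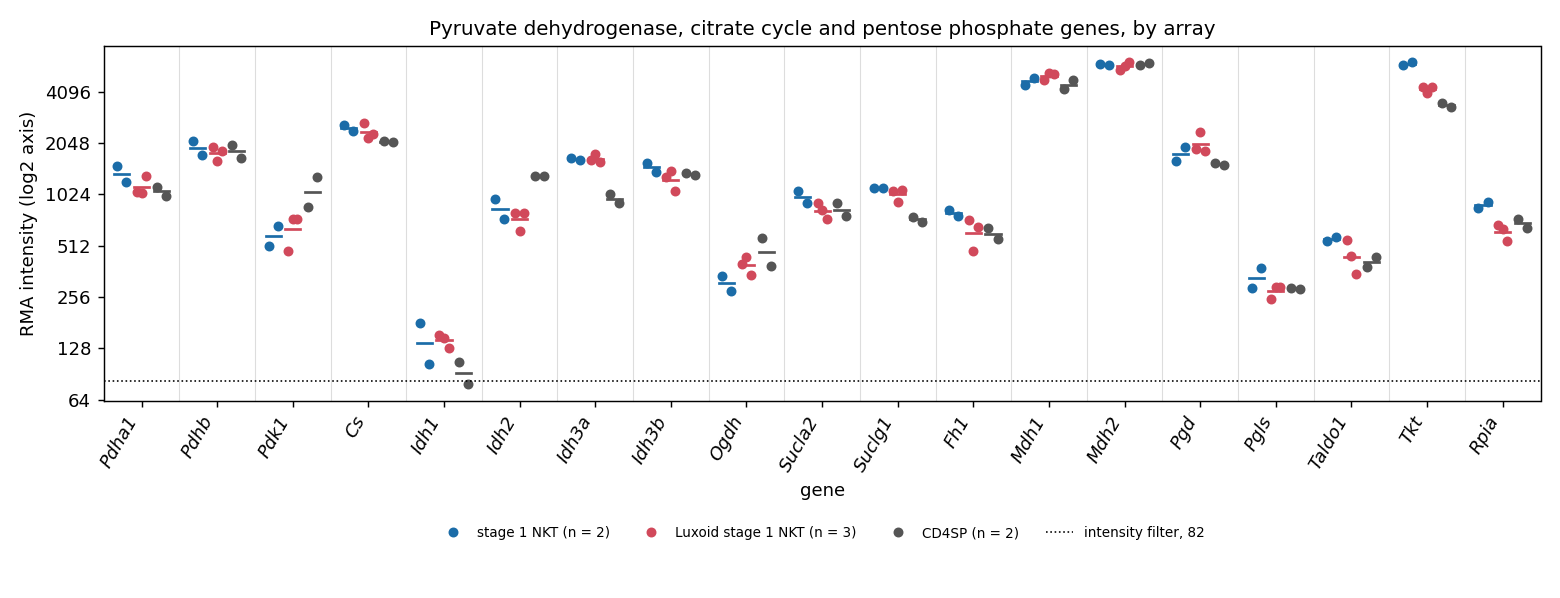
Intensity of 19 genes of pyruvate dehydrogenase, the citrate cycle and the pentose phosphate pathway on each of 7 arrays, on a log2 axis, with bars at group geometric means and a dotted line at the filter of 82. Idh3a, Suclg1 and Tkt lie above CD4SP in all NKT arrays, and Pdk1 and Idh2 lie below it. Tkt, Rpia, Fh1, Sucla2 and Suclg1 are higher in the 2 stage 1 NKT arrays than in the 3 Luxoid arrays.

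The CD4SP comparisons rested on few arrays, and many calls were lost when 1 array was left out. Tpi1 and Tkt stayed past the threshold for stage 1 NKT against CD4SP under all 17 alternatives. Fewer than the 10 members, and fewer of all genes, passed without stage 1 NKT array 1 or 2 or CD4SP array 1 or 2. Aldoa (0.0653 to 0.0981), Pgam1 (0.0953 to 0.1485) and Suclg1 (0.0888 to 0.1366) were lost without any 1 of these 4 arrays. Hk2 was lost without stage 1 NKT array 1 (0.1394) or 2 (0.0517) or CD4SP array 2 (0.1248), and Idh3a without the same 3 (0.0707, 0.05445 and 0.0718). Pgk1 was lost without stage 1 NKT array 1 (0.123) or CD4SP array 1 (0.0785) or 2 (0.0879), and Pfkl without stage 1 NKT array 1 (0.0594) or CD4SP array 2 (0.0545). These values are limma's adjusted p, and the direction of the called members never changed. Over the alternatives the log2 difference ran from 0.67 to 0.80 for Aldoa, 0.57 to 0.66 for Pgam1 and 0.89 to 1.53 for Hk2.

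For Luxoid NKT against CD4SP, Tpi1 and Pfkl stayed past the threshold under all 17 alternatives. Fewer than the 10 members, and fewer of all genes, passed without CD4SP array 1 or array 2. Without them Pgk1 (0.0703 and 0.0789), Pgam1 (0.0548 and 0.0889), Aldoa (0.116 and 0.0778) and Idh2 (0.07815 and 0.0820) were lost, as were Hk2 (0.1781) and Idh3a (0.0538) without CD4SP array 2. Without Luxoid array 3 Hk2 (0.0635), Aldoa (0.0537) and Suclg1 (0.1011) were lost. Suclg1 was also lost without Luxoid array 1, either stage 1 NKT array or either CD4SP array, after another quantile normalization, or with only the groups compared in the fit (0.0684 to 0.204).

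Proliferation genes moved with these glycolytic genes. Of 11 measured cell cycle genes 10 were higher than CD4SP in each NKT group. Their summed intensity was 28450 and 28470 in stage 1 NKT, 26510 to 31050 in Luxoid NKT, and 16540 and 18560 in CD4SP. The sum of 6 naive T cell genes moved the other way, at 11770 and 12810, 15420 to 16120, and 24530 and 25980. Of the 6, 4 were called lower than CD4SP in stage 1 NKT (Bach2, Cd4, Ccr7 and S1pr1). In Luxoid NKT 3 were called lower (Cd4, Bach2 and Ccr7). There Lef1 (-0.04), S1pr1 (-0.23) and Klf2 (0.10) did not pass. Genes of immature double-positive thymocytes summed to 316 and 325, 418 to 574, and 927 and 1075, with Rag1, Rag2, Ptcra and Arpp21 under the filter on all arrays. The part of these in the metabolic differences was not tested. In sorted bulk samples, fewer cells with a transcript and less transcript per cell cannot be told apart.

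Setting Luxoid against unmutated stage 1 NKT asked which of these transcripts depend on PLZF. At limma's adjusted threshold 0 of the 34 genes differed, where 1.55% of all 10874 genes did, 0.901% higher and 0.653% lower in Luxoid NKT. At an unadjusted p under 0.05 there were 3, all lower in Luxoid NKT. The median was -0.09 for the 34 genes and -0.03 for all genes, and 13 of the 34 were above 0. For 33 of the 34 the 95% interval excluded a 2-fold change in either direction, and the exception was Aldoc (-1.10 to -0.16). Of the enzymes that were higher than CD4SP in both NKT groups, Aldoc had the largest Luxoid minus stage 1 NKT difference, at -0.63 ± 0.21. That difference was 0.00 ± 0.17 for Pfkl, 0.02 ± 0.23 for Tpi1, -0.03 ± 0.15 for Pgk1 and 0.01 ± 0.13 for Idh3a. It was -0.16 ± 0.24 for Hk2, -0.12 ± 0.14 for Suclg1, -0.10 ± 0.14 for Aldoa and 0.08 ± 0.14 for Pgam1. For Suclg1 and 2 of the 5 Aldoa probe sets (-0.14 and -0.17) the Luxoid arrays lay below both stage 1 NKT arrays. The 2 dimmer Idh3a probe sets above the filter gave -0.31 and -0.60, with the Luxoid arrays below both stage 1 NKT arrays.

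The 3 genes with an unadjusted p under 0.05 were Tkt (-0.49 ± 0.13, adjusted p = 0.134), Rpia (-0.52 ± 0.15, adjusted p = 0.185) and Aldoc (-0.63 ± 0.21, adjusted p = 0.261). In each the 3 Luxoid arrays lay below both stage 1 NKT arrays. They also did for Ldha, Sucla2, Suclg1 and Fh1, so for 7 of the 34 genes, and for 16.6% of all genes. Luxoid arrays were above both for 2 of the 34 and 10.1% of all genes. The second Tkt probe set, at 1057 and 1175 in stage 1 NKT, 799, 620 and 873 in Luxoid NKT and 580 and 533 in CD4SP, showed the same order with a difference of -0.56. With a mean-variance trend in limma's model Tkt passed (adjusted p = 0.0206) and was the 1 member called. Over all alternatives its adjusted p ran from 0.0206 to 0.580, and that of Rpia from 0.1135 to 0.651. By pathway the medians were -0.13 for upper and 0.08 for lower glycolysis and -0.10 for pyruvate dehydrogenase. They were -0.08 for the citrate cycle and -0.34 for the pentose phosphate genes. Of the pentose phosphate genes 4 of 5 were below 0, as were 21 of the 34 genes and 6086 of all 10874 genes.

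**Figure D3:**
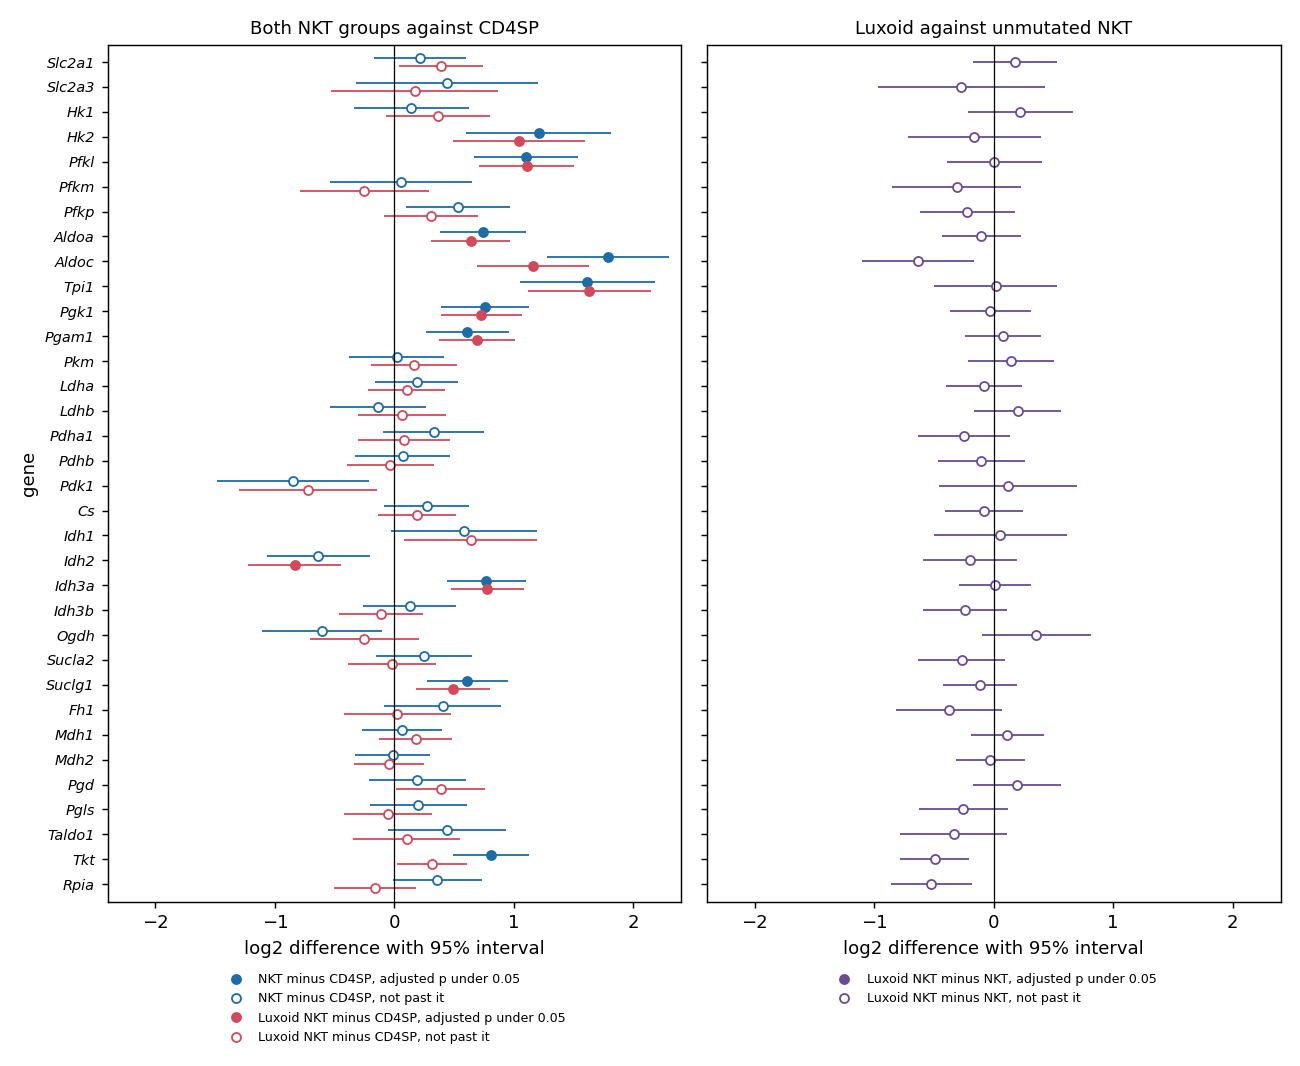
Log2 differences of the 34 genes with 95% intervals from the limma fit, for both NKT groups against CD4SP on the left and for Luxoid against unmutated stage 1 NKT on the right, with filled points where the adjusted p is under 0.05. On the left the filled points lie right of 0 except Idh2 in Luxoid NKT, and on the right 0 points are filled.

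Among other genes of these pathways, taken from lists of 33 glycolysis, 29 pyruvate and citrate cycle and 11 pentose phosphate genes, a paralogue of transketolase stood out. Tktl1, a transketolase-like gene, read 498 and 603 in stage 1 NKT, 93.5, 148 and 95.9 in Luxoid NKT, and 99.8 and 57.5 in CD4SP. It was 4.99-fold lower in Luxoid than in unmutated stage 1 NKT (-2.32 ± 0.28, adjusted p = 0.00427, and 0.0843 without stage 1 NKT array 2). Stage 1 NKT exceeded CD4SP, where 1 of 2 arrays was under the filter (2.85 ± 0.30, adjusted p = 0.000502), while Luxoid NKT and CD4SP overlapped (0.54 ± 0.28, adjusted p = 0.241). All 3 of its probe sets read lower in every Luxoid array than in stage 1 NKT. The 2 brighter ones gave -2.32 and -1.67, and in the third, at 123 and 111 in stage 1 NKT, every Luxoid and CD4SP array was under the filter. Tktl1 and Tkt are related in sequence, and whether their probes bind each other's transcript was not tested.

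Bpgm, bisphosphoglycerate mutase, which diverts a glycolytic intermediate, was the 1 of 20 other glycolysis genes tested that was higher in Luxoid NKT. It read 1768 and 1736 in stage 1 NKT, 2803, 3041 and 2762 in Luxoid NKT, and 1697 and 1748 in CD4SP. Luxoid NKT lay above all other arrays, by 1.64-fold over stage 1 NKT (0.71 ± 0.13, adjusted p = 0.0319) and 1.67-fold over CD4SP (0.74 ± 0.13, adjusted p = 0.00509). Its other 2 probe sets gave 0.66 and 0.87 over stage 1 NKT. Against stage 1 NKT it was lost without any 1 of the 7 arrays and with only the groups compared in the fit (0.0640 to 0.303). Of 22 other pyruvate and citrate cycle genes and 24 regulators of glucose metabolism, 0 passed in this comparison in limma, with 1 and 3 at an unadjusted p under 0.05.

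Of 20 other glycolysis genes 2 were higher and 2 lower in stage 1 NKT, and 4 were higher and 1 lower in Luxoid NKT, where 14.9% and 16.8% of all genes were called in either direction. Slc16a3, which encodes the lactate exporter MCT4, read 170 and 199 in stage 1 NKT, 178, 232 and 272 in Luxoid NKT, and 103 and 107 in CD4SP (0.81 ± 0.21, adjusted p = 0.0344, and 1.09 ± 0.19, adjusted p = 0.00533). Its call for stage 1 NKT was lost without any 1 of the stage 1 NKT or CD4SP arrays (0.1036 to 0.1697). Pgm2l1, which makes glucose bisphosphate, was 1.58-fold and 1.73-fold higher (adjusted p = 0.0191 and 0.00505). The first was lost without stage 1 NKT array 1 (0.126) or 2 (0.0692) or CD4SP array 2 (0.1204), and the second without CD4SP array 2 (0.0559). Ldhd, the D-lactate dehydrogenase of mitochondria, was lower, at 64.7 and 88.6, then 114, 81.1 and 87.1, against 303 and 179 in CD4SP (-1.62 ± 0.28, adjusted p = 0.00652, and -1.32 ± 0.26, adjusted p = 0.00913). The first call was lost without stage 1 NKT array 1 (0.0662) and the second without CD4SP array 1 (0.0788). Pfkfb2, which makes the activator of phosphofructokinase, was lower in stage 1 NKT (-0.91 ± 0.26, adjusted p = 0.0474), and 9 of 16 alternatives ended that call.

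Of 22 other pyruvate and citrate cycle genes 2 were higher in stage 1 NKT and 4 in Luxoid NKT, and 0 were lower in either. Over all genes 14.9% and 16.8% were called in either direction. Slc25a11, the mitochondrial oxoglutarate carrier, was called in both, at 649 and 649, 718, 662 and 725, and 419 and 455 in CD4SP (0.57 ± 0.14, adjusted p = 0.0287, and 0.68 ± 0.13, adjusted p = 0.00777). In stage 1 NKT it was not called after another quantile normalization (0.07155) or without any 1 stage 1 NKT or CD4SP array (0.0879 to 0.1362), and in Luxoid NKT it was lost without CD4SP array 1 (0.0669). Pdk3, another kinase of pyruvate dehydrogenase, read 541 and 365, then 590, 363 and 378, and 264 and 164 in CD4SP. It thus lay above CD4SP in all NKT arrays, opposite to Pdk1. Its difference was 1.10 ± 0.32 in stage 1 NKT (adjusted p = 0.0514, and 0.00188 to 0.298 over the alternatives) and 1.06 ± 0.29 in Luxoid NKT (adjusted p = 0.0386, and 0.000843 to 0.286). Calls of 3 others were lost in some alternatives. They were Pdp2, a phosphatase that switches pyruvate dehydrogenase on, in stage 1 NKT (0.74 ± 0.20, adjusted p = 0.0434), and in Luxoid NKT Me2, a malic enzyme (0.60 ± 0.15, adjusted p = 0.0288), and Aco1, the cytosolic aconitase (0.71 ± 0.19, adjusted p = 0.0339). Pdp2 was lost without stage 1 NKT array 1 (0.473 on the log2 scale, adjusted p = 0.261), among others. Averaging probe sets reduced Me2 to 0.147 (adjusted p = 0.475) and Aco1 to 0.399 (adjusted p = 0.0874). Leaving out either CD4SP array also ended both calls, with adjusted p = 0.0695 and 0.196 for Me2 and 0.155 and 0.158 for Aco1.

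Among 24 tested regulators, 2 were higher and 2 lower in stage 1 NKT than in CD4SP, and 2 were higher and 3 lower in Luxoid NKT. Over all genes 14.9% and 16.8% were called in either direction. Txnip, an inhibitor of glucose uptake whose transcript follows glucose supply, read 1196 and 937 in stage 1 NKT, 1032, 1056 and 1104 in Luxoid NKT, and 1839 and 1963 in CD4SP. It was 1.79-fold lower in each NKT group (-0.84 ± 0.16, adjusted p = 0.0100, and -0.84 ± 0.15, adjusted p = 0.00574). Without CD4SP array 2 both calls were lost (0.0720 and 0.0577), as was the first without stage 1 NKT array 2 (0.0730). Irf4, a transcription factor that activated T cells need for glycolytic gene expression, was 1.73-fold and 2.02-fold higher (0.79 ± 0.18, adjusted p = 0.0224, and 1.01 ± 0.17, adjusted p = 0.00410). The first was lost without any 1 stage 1 NKT or CD4SP array (0.0543 to 0.1579). Rheb, the activator of mTORC1, was higher in stage 1 NKT (0.78 ± 0.22, adjusted p = 0.0461, up to 0.269 over the alternatives). Bach2, a repressor that keeps T cells naive, read 702 and 578 in stage 1 NKT, 1587, 1133 and 1005 in Luxoid NKT, and 4274 and 4079 in CD4SP. The 3 groups did not overlap, and both NKT groups were lower than CD4SP (-2.71 ± 0.22, adjusted p = 0.000139, and -1.78 ± 0.20, adjusted p = 0.000638). The Luxoid minus stage 1 NKT difference of Bach2 did not pass (0.93 ± 0.20, adjusted p = 0.076). Egln3, an oxygen-sensing hydroxylase, read 139 and 112 in stage 1 NKT, 294, 510 and 226 in Luxoid NKT, and 82.9 and 60.5 in CD4SP. Luxoid NKT lay above CD4SP, where 1 of 2 arrays was under the filter (2.19 ± 0.32, adjusted p = 0.00206), and its difference from stage 1 NKT did not pass (1.38 ± 0.32, adjusted p = 0.0919).

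**Figure D4:**
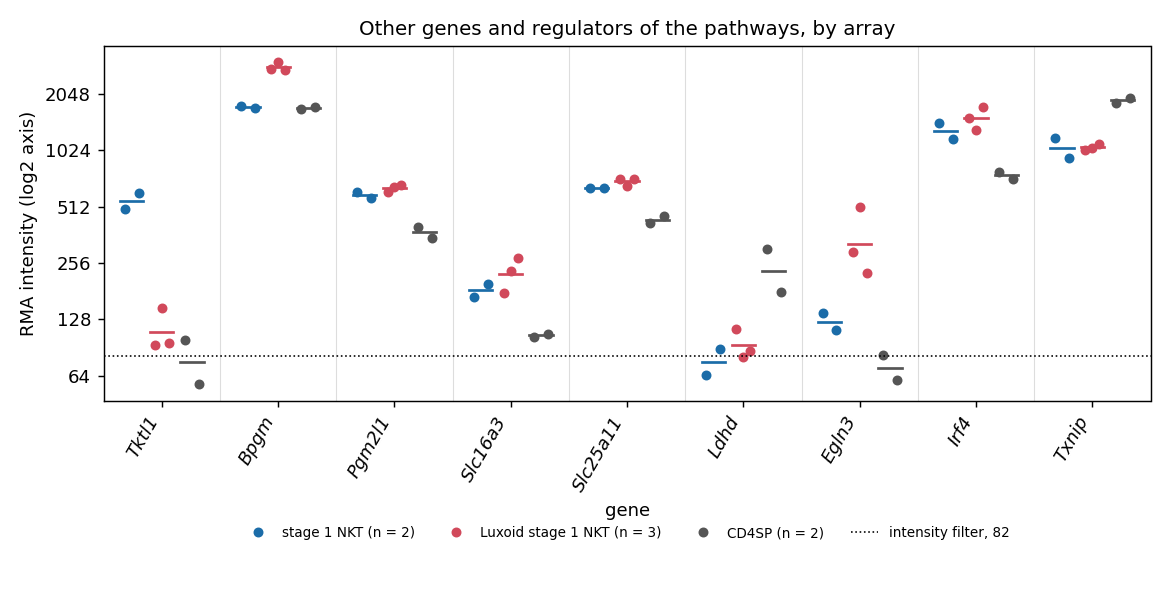
Intensity of 9 other pathway genes and regulators on each of 7 arrays, on a log2 axis, with bars at group geometric means and a dotted line at the filter of 82. Tktl1 is high in the 2 stage 1 NKT arrays only, Bpgm is high in the 3 Luxoid arrays, and Txnip and Ldhd are highest in CD4SP.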

How the data were processed

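Per the labels' protocols, sorted-cell RNA was amplified, labelled with biotin and put on single-colour arrays. Per the submitters' processing notes, the deposited values are intensities from Affymetrix Expression Console, summarised by RMA (versions not stated there). RMA removes background, equalises array distributions by quantiles and summarises probe sets, which compresses differences of dim genes. The deposited intensities ran from 3.08 to 20875 on a linear scale, and log2 was taken from them. No 2 arrays were identical.

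Gene symbols came from GEO's annotation of the platform: of 45037 probe sets 34945 had 1 symbol, 932 several and 9160 were not listed. By gene ID 34741 matched RefSeq of GRCm38.p6, which changed 0 symbols. Each gene was represented by its brightest probe set on average, and 10874 of 18193 genes reached an intensity of 82 in 2 arrays. Group means of all 7 arrays were fitted in R 4.3.3 by limma 3.58.1 (lmFit, eBayes; 4 residual and 4.49 prior degrees of freedom), with Benjamini-Hochberg adjustment over all genes tested per comparison and a threshold of 0.05. The fit was tested on simulated data. The number of arrays limits the precision.

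Named are all measured members, Zbtb16, Hif1a, Myc and Txnip, and up to 4 called genes with the smallest adjusted p per other list and comparison. The members and lists were chosen with earlier results of these data known. Alternatives changed the filter, probe set rule, normalization, variance model, array weights, samples, a replicate block and a Y-linked covariate.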

Additional observations from a re-analysis of the deposited data

How the results depend on the processing

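Each comparison was refitted under 17 alternatives, 7 of which left out 1 array and, where that left 1 array in a group, assumed that it varies like the other groups. Of 102 member differences, 20 were past the threshold and 0 of these changed sign. Among the other 82, 30 changed sign in at least 1 alternative, and no direction is read from them. Counts of called members stayed within 1.5 times of 0, 10 and 10 (Luxoid minus stage 1 NKT first, then stage 1 NKT and Luxoid minus CD4SP), except with the trend model, which called 1 in the first, and with 1 array left out. Leaving out 1 array gave 0 members, 3 to 11 and 3 to 10. It gave 55 to 178, 643 to 1846 and 866 to 1726 of all genes, against 169, 1621 and 1831. Under a replicate block 0, 13 and 13 members and 170, 2616 and 2299 genes were called. Among genes named, the block newly called Pfkp (0.53, adjusted p = 0.0394), Pdk1 (-0.85, 0.00592) and Idh2 (-0.64, 0.0231) for stage 1 NKT, Pfkm (-0.51, 0.0458), Idh1 (0.71, 0.0439) and Pdk1 (-0.83, 0.00677) for Luxoid NKT against CD4SP, and Bach2 (1.07, 0.0248) for Luxoid against stage 1 NKT. It did the same for Pdk3 in stage 1 NKT (1.10, 0.00207), and for Pdp2 (0.60, 0.0287) and Rheb (0.71, 0.0373) in Luxoid NKT. Same-numbered arrays of different groups deviated together (r = 0.334 to 0.491), and for numbers 1 and 2 each array correlated best with its own number. In a group of 2 arrays the deviations from the group mean mirror each other, so these correlations are not independent. The arrays numbered 1 were also those low in Y-linked Kdm5d, so number 1 and low Kdm5d cannot be told apart. The labels do not say that numbers mark a shared batch. The covariate used 3 Y-linked genes, since Ddx3y was not analysed here, and gave 0, 12 and 12 members. Probe sets near the intensity filter limit what is said of Aldoc and Idh1.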
